A study of Mus musculus with 48 samples.

Results

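Hair keratins and keratin-associated proteins were followed in the skin of *Dsg1* knockout mouse embryos. The members were the genes of the read-count table whose symbol begins with Krtap and a digit, or belongs to the keratins of the inner root sheath, the companion layer and the hair shaft. There were 27 members among 22817 genes: 8 inner root sheath keratins, 1 companion layer keratin (*Krt75*), 13 hair shaft keratins and 5 keratin-associated proteins. Of the 24 keratin symbols named, 22 had a row, and *Krt39* and *Krt40* were not analysed here. Keratin-associated proteins are a large gene family, and the genes of it without a row in the table cannot be judged.

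The inner root sheath is the epithelial mould around the growing hair, and the companion layer lies between it and the outer root sheath. Keratins are obligate pairs of a type I and a type II chain. In the shaft, keratin filaments are embedded in a matrix of keratin-associated proteins, small proteins rich in cysteine (high sulfur and ultra-high sulfur classes) or in glycine and tyrosine. Hard keratins are also made in the tongue and in nail.

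RNA-Seq of poly(A)-enriched RNA from skin was available for 48 libraries. Each of the genotypes *Dsg1+/+*, *Dsg1+/-* and *Dsg1-/-* had 4 libraries per day from E15.5 to E18.5, which makes 12 groups. The knockout removed the tandem cluster of the 3 genes *Dsg1a*, *Dsg1b* and *Dsg1c*, which encode the desmosomal cadherin desmoglein 1, and no other allele or treatment is named in the labels. Replicate numbers run on across the groups, and the labels give neither litter nor collection date, so age and litter cannot be told apart and p-values measure the spread between these libraries.

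Reads on *Dsg1a*, *Dsg1b* and *Dsg1c* together ranged from 170 to 6707 in the 16 *Dsg1+/+* libraries (median 1683). They ranged from 34 to 4324 in *Dsg1+/-* (median 510.5) and from 0 to 1 in *Dsg1-/-*, so the knockout labels matched the reads in every *Dsg1-/-* library. Library totals were 18266331 to 36413057 reads. The members took between 0.000146% and 0.04995% of the reads of a library. A count of 0 allows up to 3 reads, or 0.0824 to 0.164 CPM depending on the library. Levels are given in CPM, reads scaled to a common library size after TMM normalization.

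At E15.5 and E16.5 inner root sheath keratins had few reads in all 3 genotypes. The 8 inner root sheath keratins summed to 0.384 ± 0.112 CPM (SD, n = 4) in *Dsg1+/+* skin at E15.5, 0.398 ± 0.0678 in *Dsg1+/-* and 0.391 ± 0.202 in *Dsg1-/-*. At E16.5 these sums were 0.761 ± 0.813, 0.766 ± 0.458 and 0.837 ± 0.508 CPM. The genotypes overlapped at both ages. The hair shaft keratins summed to between 0.932 and 3.02 CPM in the libraries of E15.5. At E16.5 they summed to 1.52, 2.35, 7.32 and 10.4 CPM in *Dsg1+/+*, where *Krt34* and *Krt84* were high in replicates 15 and 16, and to between 1.70 and 3.89 in the other 2 genotypes. *Krt81* and *Krt86*, type II keratins of the hair cortex, had 0 reads in all 12 libraries of E15.5.

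A gene was tested where it had at least 10 reads in at least 4 of the libraries fitted, and counted as called if its false discovery rate (FDR) was 0.1 or less and its log2 fold change 1 or more in size. The test was that of edgeR, and SE is the standard error of the log2 fold change. At E15.5, 4 members passed the filter in *Dsg1-/-* against *Dsg1+/+* and 0 were called, where 0.012% of all genes tested were. At an unadjusted p under 0.05 edgeR gave 0 members and 2.45% of all genes, and DESeq2 called 0 members. At E16.5, 5 members passed and 0 were called by edgeR or DESeq2, against 0% of all genes with edgeR. At an unadjusted p under 0.05 it gave 0 members and 10% of all genes.

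Single libraries of E16.5 stood out in the hard keratins. *Krt84*, a keratin of the filiform papillae of the tongue, had 183 reads in *Dsg1+/+* replicate 16 and 0, 1 and 3 in the other *Dsg1+/+* libraries of that age. *Krt34* had 109 reads in *Dsg1+/+* replicate 15 and 0 to 25 in the other 3.

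Reads on several inner root sheath and shaft keratins appeared between E16.5 and E17.5, while *Krt72* and *Krt74* had 0 to 3 reads in each *Dsg1+/+* library of E17.5. *Krt28*, a type I keratin of all layers of the inner root sheath, had 3 to 17 reads in the 12 libraries of E16.5. At E17.5 the *Dsg1+/+* libraries had 305, 520, 235 and 115 reads on *Krt28*, and the *Dsg1-/-* libraries 267, 423, 80 and 117. *Krt25*, its type I relative, went from 0 to 1 read in *Dsg1+/+* at E16.5 to 113, 265, 79 and 28 at E17.5. *Krt35* and *Krt85*, the type I and type II keratins that appear first in the hair matrix and precortex, reached 50 to 246 and 16 to 159 reads in *Dsg1+/+*. The ranges of these 4 genes did not overlap between the 2 ages in *Dsg1+/+*.

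In *Dsg1+/+* skin, 10 of 18 members tested were higher at E17.5 than at E16.5, where 3.16% of all genes were, and 1 was lower, where 0.928% were. The higher genes were *Krt25*, *Krt27*, *Krt28*, *Krt71* and *Krt73* of the inner root sheath, *Krt35*, *Krt81*, *Krt85* and *Krt86* of the shaft, and *Krtap3-2*. The lower gene was *Krtap13*. *Krt28* had a log2 fold change of 4.97 (SE 0.48, FDR = 1.55e-04) and *Krt73* one of 5.67 (SE 0.56, FDR = 1.56e-04). In *Dsg1-/-* skin, 8 of 17 members tested were higher (9.89% of all genes) and 1 was lower (3.92%). *Krt28* there had a log2 fold change of 4.98 (SE 0.57, FDR = 0.00432). Many of these genes passed the filter only through the later ages, so the counts describe when reads appeared. The lower gene in both genotypes, *Krtap13*, passed it only through the E16.5 libraries, in which it was higher.

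**Figure D1:**
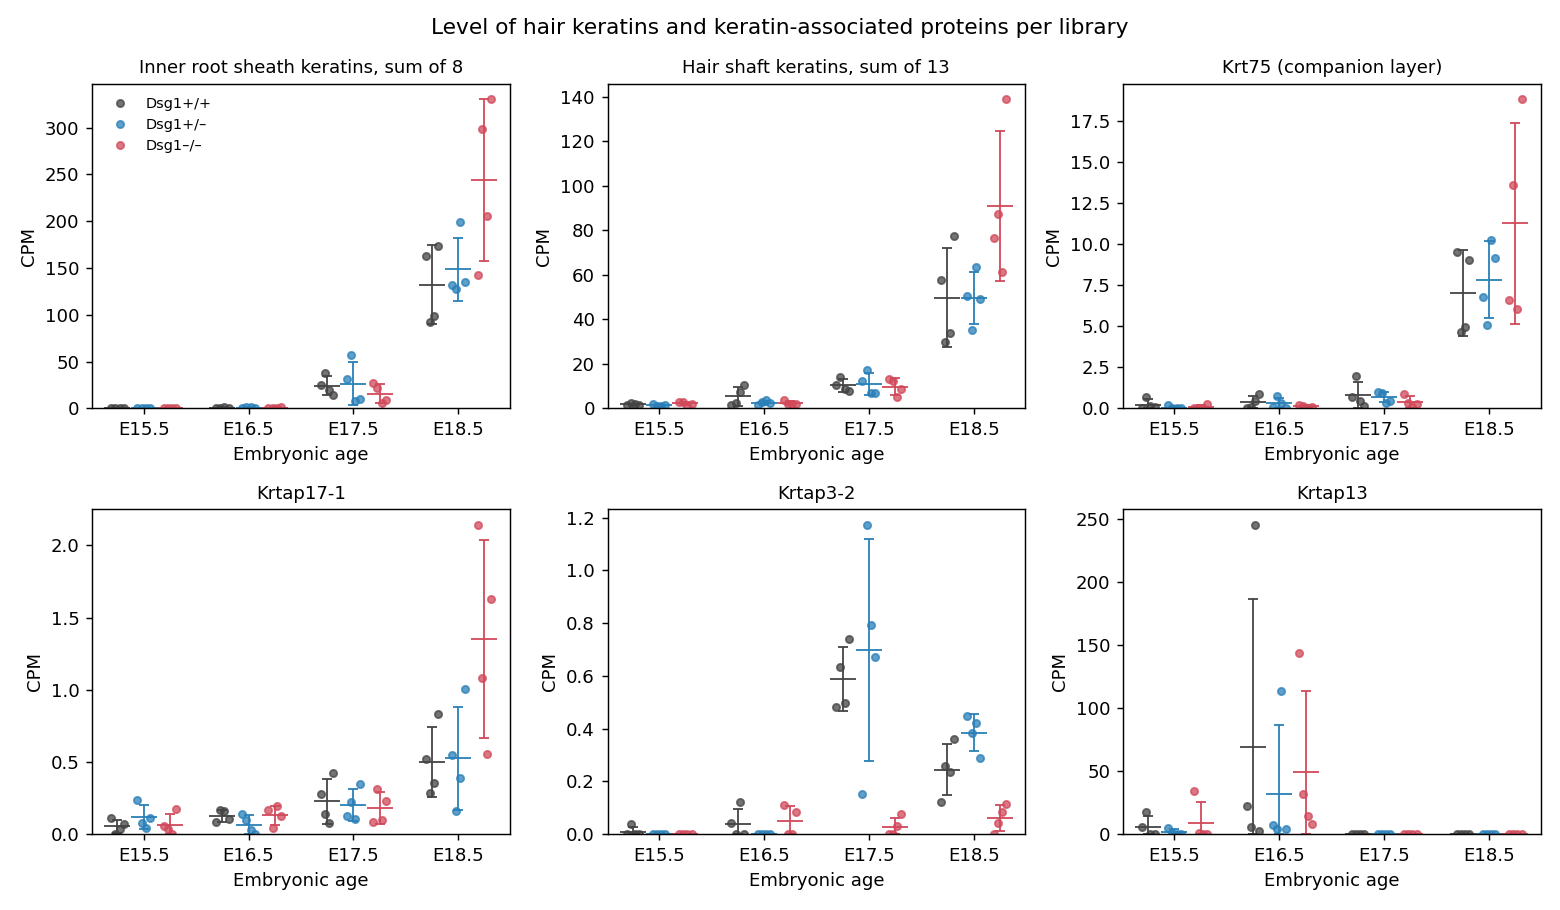
Each point is 1 library, and the horizontal marks and bars are the mean and SD of 4 libraries, cut at 0. The vertical axes give CPM on linear scales that differ between panels, by embryonic age and genotype. The summed inner root sheath and hair shaft keratins were highest at E18.5, and *Krtap13* was seen at E15.5 and E16.5.

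At E17.5 the libraries of 1 group differed widely in these keratins. The inner root sheath sums were 25.1, 37.7, 20.1 and 14.2 CPM in *Dsg1+/+* and 31.6, 56.7, 8.04 and 9.77 in *Dsg1+/-*. In *Dsg1-/-* they were 27.6, 21.5, 5.68 and 9.17 CPM. The 4 lowest libraries were *Dsg1+/-* replicates 31 and 32 and *Dsg1-/-* replicates 35 and 36, and the genotypes overlapped. The same 4 libraries had the highest summed levels of the 5 keratins of the periderm and of simple epithelia (*Krt4*, *Krt8*, *Krt13*, *Krt18* and *Krt19*). These were 114, 77.2, 250.1 and 334 CPM, against 11.4 to 45.7 in the other 8 libraries of that age. The most abundant gene of that list was *Krt13* at E17.5 and *Krt4* over all 48 libraries, and its part in the result was not tested.

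The ratio of the *Dsg1-/-* to the *Dsg1+/+* mean was 0.658 for the inner root sheath sum at E17.5 and 0.953 for the hair shaft sum. With edgeR no keratin among the members was called. *Krt71*, the type II partner of the inner root sheath type I keratins, had levels of 3.10, 6.18, 2.61 and 1.85 CPM in *Dsg1+/+* and 3.92, 2.58, 0.653 and 0.875 in *Dsg1-/-*. Its log2 fold change was -0.79 (SE 0.81, FDR = 0.965). *Krt73* gave -0.91 (SE 0.64), *Krt25* -0.71 (SE 0.81), *Krt35* 0.09 (SE 0.60) and *Krt85* -0.15 (SE 0.74), all with an FDR over 0.9. An alternative chosen after seeing the data left out the 4 libraries of the highest periderm sum. *Krt71* was then at -0.10, *Krt73* at -0.27 and *Krt25* at -0.02, while *Krt28* was at 0.15 and *Krt35* at 0.67. The libraries left out also had the lowest inner root sheath sums of that age, and none was *Dsg1+/+*. A shift of these inner root sheath keratins upward was thus fixed by the choice and tests no link with the periderm keratins. *Krt75* of the companion layer had 20, 72, 12 and 3 reads in *Dsg1+/+* and 21, 14, 2 and 7 in *Dsg1-/-*, and its log2 fold change was -1.14 (SE 0.74, FDR = 0.965). With single libraries left out it ranged from -1.84 to -0.23.

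Of the 13 members tested at E17.5, 1 was called, and it was lower in *Dsg1-/-*, as were 0.465% of all genes. This was *Krtap3-2*, of the high sulfur class. Its reads were 14, 23, 13 and 14 in *Dsg1+/+*, 5, 26, 22 and 21 in *Dsg1+/-*, and 0, 0, 1 and 2 in *Dsg1-/-*. Every *Dsg1-/-* library was below every *Dsg1+/+* and *Dsg1+/-* library. The log2 fold change against *Dsg1+/+* was -4.31 (SE 0.80, FDR = 0.0723). *Krtap3-2* passed the filter only through the *Dsg1+/+* libraries, here and at E18.5, and was also called at both ages where all genes with at least 1 read were kept (FDR = 0.0677 and 0.0991). With 3 reads against 64, the ratio was 0.0435, with an exact 95% counting interval of 0.00874 to 0.133. The FDR passed 0.1 when any of 7 of the 8 libraries was left out, all but *Dsg1-/-* replicate 35, with log2 fold changes of -5.29 to -3.84 over the 8 fits. In 6 of those 7 fits between 1 and 3 of all genes were called, and in the other, without *Dsg1-/-* replicate 33, 34 were.

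Of the 13 members tested, 2 had groups that did not overlap at E17.5, *Krtap3-2* and *Krt84*, where 4.76% of all genes did. Both passed the filter only through the *Dsg1+/+* libraries, in which they were higher, so this count cannot be read against that share. *Krt84* had 19, 8, 20 and 18 reads in *Dsg1+/+*, 2, 6, 25 and 20 in *Dsg1+/-* and 0, 1, 6 and 3 in *Dsg1-/-*. Its log2 fold change was -2.86 (SE 0.87, FDR = 0.297), and it was called by DESeq2 (adjusted p = 0.0404). *Krt34* gave 1.44 (SE 0.90, FDR = 0.965), with 43 and 51 reads in *Dsg1-/-* replicates 35 and 36 and 3 in each of the other *Dsg1-/-* libraries. It passed the filter only through the *Dsg1-/-* libraries, in which it was higher.

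Genes of the cornified envelope and late epidermal differentiation were examined in the same comparison. All 20 genes of that list had a negative log2 fold change (median -2.90, against -0.00102 over all genes tested), and 4 were called: *Cdsn* at -4.33 (SE 0.58, FDR = 0.0568), *Asprv1* at -3.76, *Casp14* at -2.83 and *Sbsn* at -2.88. Their summed level was 11238 to 12269 CPM in *Dsg1+/+* and 366, 213, 3740.1 and 2166 in *Dsg1-/-*. Of the genes of the inner root sheath other than keratins, *Tgm3*, a transglutaminase also made in the granular layer, was called lower (-2.73, SE 0.54, FDR = 0.0860). *Ovol1*, a transcription factor of the hair matrix and the epidermis, was lower as well (-1.81, SE 0.38, FDR = 0.0982). Whether *Krtap3-2* reads came from follicles or from interfollicular epidermis was not tested.

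At E18.5 the inner root sheath sums were 162, 92.4, 99.1 and 174 CPM in *Dsg1+/+*, 131, 128, 199 and 135 in *Dsg1+/-*, and 142, 298, 205 and 330.3 in *Dsg1-/-*. The hair shaft sums were 57.6, 29.9, 33.9 and 77.6 CPM in *Dsg1+/+*, 50.5, 35.3, 63.5 and 49.4 in *Dsg1+/-*, and 76.7, 87.3, 61.3 and 139 in *Dsg1-/-*. The mean of *Dsg1-/-* was 1.85 times that of *Dsg1+/+* for the inner root sheath and 1.83 times for the shaft, and the groups overlapped in both sums. In whole skin, a change in the number of cells of a type and a change in the RNA per cell cannot be told apart. The inner root sheath sum was 2.77 ± 0.368 times (SD, n = 4) the shaft sum in *Dsg1+/+*, 3.03 ± 0.458 times in *Dsg1+/-* and 2.75 ± 0.761 times in *Dsg1-/-*. These ratios differed by less than the spread between libraries. At E17.5 the ratio was 2.28 ± 0.339, 2.07 ± 1.01 and 1.49 ± 0.517.

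Per kilobase of transcript, *Krt28* led the inner root sheath keratins of *Dsg1+/+* skin at E18.5 with a mean of 23.9 CPM. *Krt25*, *Krt71* and *Krt73* followed with 13.8, 13.1 and 11.1, and their spreads overlapped. *Krt27* had 7.76, and *Krt72*, *Krt26* and *Krt74* had 0.159, 0.156 and 0.0388 CPM per kilobase. *Krt35* led the shaft keratins with 14.01, and *Krt32* was next among those with a length, at 0.611. *Krt85* had no transcript length in the annotation used, and its level was 11.1 ± 4.15 CPM.

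Of the 21 members tested at E18.5, 8 were called higher in *Dsg1-/-* than in *Dsg1+/+*, where 2.71% of all genes were, and 1 was called lower, where 2.02% were. The 6 members that did not pass the filter were *Krt74*, *Krt82*, *Krt84*, *Krtap7-1*, *Krtap8-1* and *Krtap13*. Of the 21, 4 passed the filter only through the group in which they were higher, *Krt33a*, *Krt33b*, *Krt34* and *Krtap3-2*. The other 17 all had a positive log2 fold change, with a median of 0.96 against 0.02 over all genes, and 6 of them were called higher. Of the 21 members tested, 4 had groups that did not overlap, *Krt27*, *Krt32*, *Krt72* and *Krtap3-2*, against 7.47% of all genes tested. *Krtap3-2* passed the filter only through the group in which it was higher, so this count cannot be read against that share. *Krt27*, *Krt32* and *Krt72* were among the 17 others.

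Among the inner root sheath keratins, 4 of 7 tested were called higher. *Krt27*, a type I keratin, had levels of 15.02, 8.44, 8.33 and 16.3 CPM in *Dsg1+/+*, 13.7, 12.4, 17.9 and 13.7 in *Dsg1+/-*, and 17.99, 33.4, 25.3 and 30.3 in *Dsg1-/-*. Its lowest *Dsg1-/-* library was above the highest *Dsg1+/+* library, and the log2 fold change was 1.15 (SE 0.25, FDR = 0.0802). *Krt71* had 35.02, 19.6, 20.9 and 39.2 CPM in *Dsg1+/+* and 31.3, 92.2, 70.2 and 73.0 in *Dsg1-/-*. Replicate 45 of *Dsg1-/-* lay within the *Dsg1+/+* range and the other 3 were above it, with a log2 fold change of 1.22 (SE 0.32, FDR = 0.0804).

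*Krt72* and *Krt26*, keratins of the inner root sheath cuticle, were low at this age. *Krt72* had 19, 0, 1 and 17 reads in *Dsg1+/+*, 14, 9, 20 and 25 in *Dsg1+/-*, and 24, 91, 67 and 19 in *Dsg1-/-*. It was the inner root sheath keratin with the highest log2 fold change, 2.84 (SE 0.81, FDR = 0.0804). Once scaled to library size, every *Dsg1-/-* library was above every *Dsg1+/+* library, 0.736 against 0.616 CPM at the nearest. *Krt26* had 19, 10, 8 and 31 reads in *Dsg1+/+* and 40, 60, 39 and 20 in *Dsg1-/-*, with a log2 fold change of 1.66 (SE 0.48, FDR = 0.0804). *Krt25* and *Krt73* passed the FDR but not the fold limit, at 0.84 (SE 0.29, FDR = 0.0806) and 0.80 (SE 0.32, FDR = 0.0921). *Krt28* did not pass either, at 0.50 (SE 0.29, FDR = 0.201), and ranged from 28.5 to 49.5 CPM in *Dsg1+/+* and from 36 to 86.9 in *Dsg1-/-*.

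Among the hair shaft keratins *Krt32*, *Krt33a* and *Krt33b* were called higher, of which only *Krt32* passed the filter without the *Dsg1-/-* libraries. *Krt32*, a type I keratin of the hair cuticle, had levels of 1.14, 0.675, 1.02 and 1.23 CPM in *Dsg1+/+*, 1.24, 1.40, 1.23 and 1.72 in *Dsg1+/-*, and 1.87, 2.59, 3.22 and 2.21 in *Dsg1-/-*. All 4 *Dsg1-/-* libraries were above the other 8, and the log2 fold change was 1.29 (SE 0.24, FDR = 0.0426). The type I cortex keratins *Krt33a* and *Krt33b* rose by 1.69 (SE 0.63, FDR = 0.0839) and 1.70 (SE 0.61, FDR = 0.0827) on the log2 scale. *Krt33a* had 21, 3, 4 and 8 reads in *Dsg1+/+* and 13, 32, 14 and 29 in *Dsg1-/-*. *Krt33b* had 10, 2, 2 and 10 reads in *Dsg1+/+* and 13, 19, 6 and 21 in *Dsg1-/-*. Both pairs of groups overlapped. *Krt33a* and *Krt33b* passed the filter only through the *Dsg1-/-* libraries, in which they were higher, and neither was called where all genes with at least 1 read were kept. *Krt33a*, *Krt33b*, *Krt31* and *Krt34* are closely related in sequence, as are *Krt81*, *Krt83* and *Krt86*, so reads may have been split between them in the counting.

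*Krt35* had 37.8, 17.6, 22.8 and 56.0 CPM in *Dsg1+/+*, 34.3, 23.5, 39.9 and 31.7 in *Dsg1+/-*, and 56.0, 62.0, 47.6 and 96.1 in *Dsg1-/-*. The lowest *Dsg1-/-* value was below the highest of *Dsg1+/+*, and the log2 fold change of 0.96 (SE 0.33, FDR = 0.0804) was under the fold limit. *Krt85*, its type II partner, had 13.7, 8.52, 6.76 and 15.503 CPM in *Dsg1+/+* and 13.3, 12.9, 6.66 and 29.7 in *Dsg1-/-*, with a log2 fold change of 0.49 (SE 0.40, FDR = 0.361). It was -0.02 without *Dsg1-/-* replicate 48. *Krt31* gave 1.43 (SE 0.60, FDR = 0.102) and *Krt83* 0.99 (SE 0.58, FDR = 0.214). *Krt34*, *Krt36*, *Krt81* and *Krt86* had log2 fold changes between 0.42 and 0.61 with FDRs of 0.287 to 0.523. *Krt86* was at -0.26 without *Dsg1-/-* replicate 48. *Krt75* of the companion layer had 9.54, 4.65, 4.95 and 9.06 CPM in *Dsg1+/+* and 6.59, 13.6, 6.06 and 18.9 in *Dsg1-/-*, a log2 fold change of 0.68 (SE 0.38, FDR = 0.191).

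**Figure D2:**
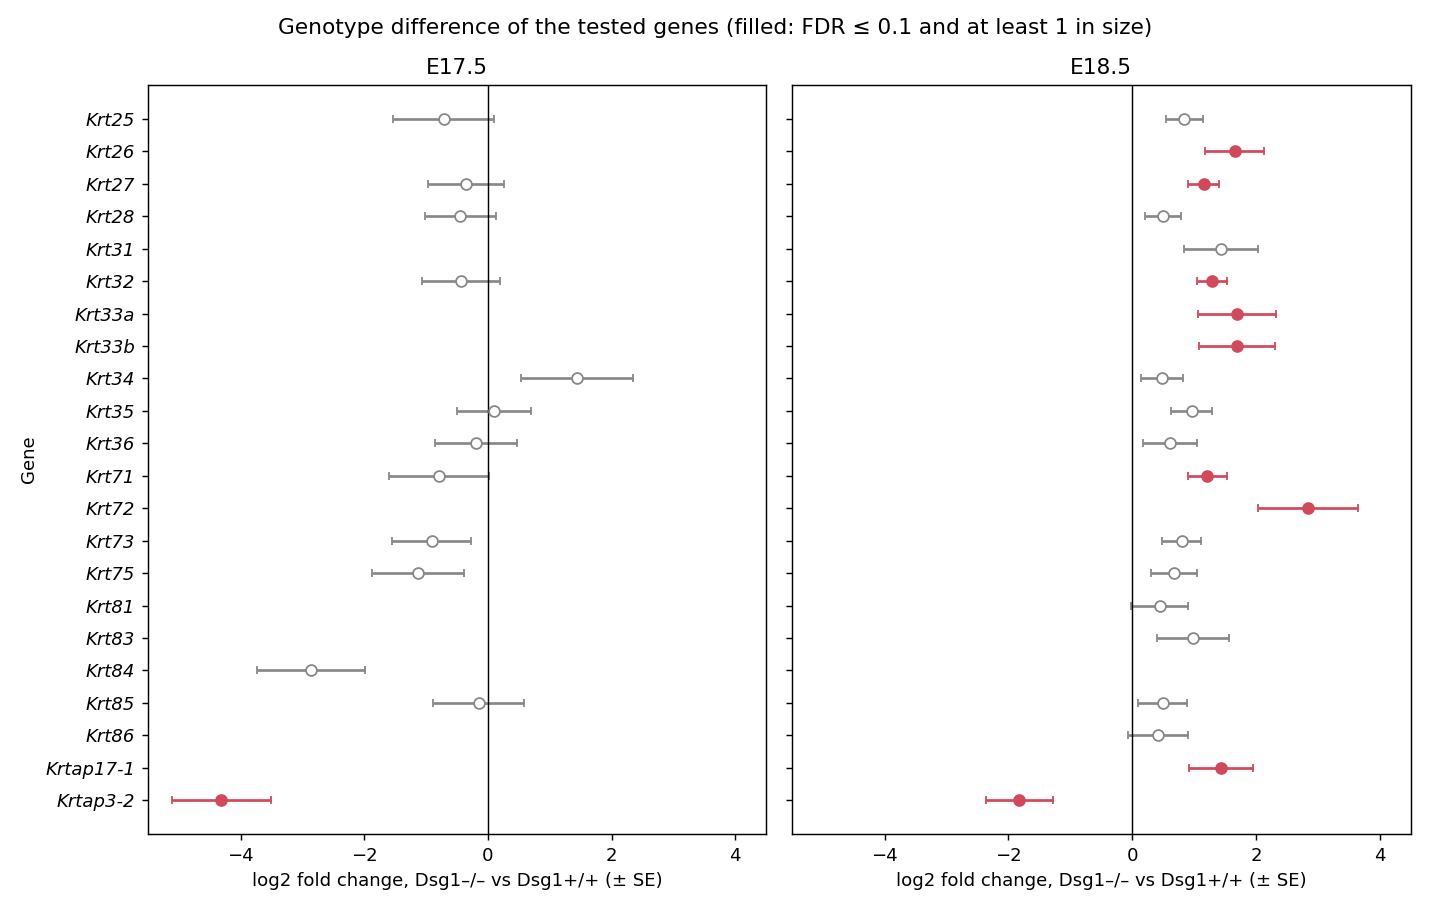
Points are log2 fold changes of *Dsg1-/-* against *Dsg1+/+* from edgeR with 1 SE to each side, for the members that passed the filter at E17.5 (13 genes) or E18.5 (21 genes). Filled points passed an FDR of 0.1 and a log2 fold change of 1 in size. At E18.5 the points other than *Krtap3-2* lay above 0, and at E17.5 those of the 5 inner root sheath keratins lay below 0.

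The count of 9 called members at E18.5 depended on which libraries were present. Without *Dsg1+/+* replicate 37, 38 or 39 it was 0, and without *Dsg1-/-* replicate 45 or 47 it was 3 or 2. Without *Dsg1-/-* replicate 46 it was 7, without *Dsg1-/-* replicate 48 the same 9 were called, and without *Dsg1+/+* replicate 40 it was 12. In the 5 fits with 0 to 3 called members the calls over all genes also went from 797 to 47, 44, 40, 58 and 212. With all 48 libraries in 1 fit, 0 members were called at E18.5 and 85 of all genes were. The 8 log2 fold changes called higher stayed above 1 in each of the 8 fits that left out 1 of these libraries. Genotype also moved with transcript length at this age: the median log2 fold change was 0.59 for transcripts of up to 1000 bases, 0.25 and 0.13 in the length classes of *Krt27* and *Krt71*, and -0.25 for the longest class. *Krt27* has a transcript of 1550 bases and *Krt71* one of 2186. With the length trend taken out of each library, 4 members were called higher and 1 lower, *Krt26*, *Krt32*, *Krt71*, *Krt72* and *Krtap3-2*. *Krt27* then had a log2 fold change of 0.95, *Krtap17-1* 0.94, *Krt33a* 1.497 and *Krt33b* 1.48.

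Keratin-associated proteins did not follow 1 course. *Krtap17-1*, of the ultra-high sulfur class, had 17, 11, 9 and 23 reads in *Dsg1+/+* at E18.5, 16, 5, 12 and 21 in *Dsg1+/-* and 40, 25, 13 and 42 in *Dsg1-/-*. It was called higher in *Dsg1-/-* with a log2 fold change of 1.43 (SE 0.51, FDR = 0.0818), although *Dsg1-/-* replicate 47 lay within the *Dsg1+/+* range. *Krtap8-1*, of the high glycine-tyrosine class, had 1, 1, 1 and 5 reads in *Dsg1+/+*, 0, 1, 1 and 7 in *Dsg1+/-*, and 7, 9, 7 and 14 in *Dsg1-/-*. *Krtap7-1*, of the same class, had 5, 0, 0 and 3 reads in *Dsg1+/+*, 3, 0, 1 and 3 in *Dsg1+/-* and 14, 10, 2 and 16 in *Dsg1-/-*.

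The *Krtap8-1* groups of *Dsg1-/-* and *Dsg1+/+* did not overlap, and those of *Krtap7-1* did. The ratio of *Dsg1-/-* to *Dsg1+/+* was 6.31 for *Krtap8-1* (exact 95% counting interval 2.89 to 15.7) and 7.16 for *Krtap7-1* (3.32 to 17.7). Both were below the filter, and both were called where all genes with at least 1 read were kept (log2 fold changes of 2.53 and 2.75, FDR = 0.0991). In that fit *Krt33a*, *Krt33b* and *Krtap17-1* were no longer called. Before E18.5 these 2 genes had at most 1 read in any library.

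*Krtap3-2* remained lower in *Dsg1-/-* at E18.5. Its reads were 4, 10, 6 and 10 in *Dsg1+/+*, 13, 12, 13 and 6 in *Dsg1+/-* and 0, 1, 2 and 3 in *Dsg1-/-*. The groups of *Dsg1-/-* and *Dsg1+/+* were separated by 1 read, and the log2 fold change was -1.82 (SE 0.54, FDR = 0.0804). With 6 reads against 30, the ratio was 0.273 (exact 95% counting interval 0.0929 to 0.666). DESeq2 gave *Krtap3-2* no adjusted p at E18.5, and the call was lost in 5 of the 8 fits that left out 1 library, those without *Dsg1+/+* replicate 37, 38 or 39 or *Dsg1-/-* replicate 45 or 47.

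*Krtap13*, of the high sulfur class, was seen only at the 2 early ages, at levels that differed widely within a group. At E15.5 its reads were 154, 483, 1 and 16 in *Dsg1+/+*, 132, 34, 0 and 3 in *Dsg1+/-* and 1182, 26, 0 and 8 in *Dsg1-/-*. At E16.5 they were 537, 132, 6095 and 73 in *Dsg1+/+*, 200, 126, 3587 and 107 in *Dsg1+/-*, and 2583, 750, 371 and 203 in *Dsg1-/-*. In the 24 libraries of E17.5 and E18.5 it had 0 to 4 reads. In *Dsg1+/+* it fell by 11.1 on the log2 scale between E16.5 and E17.5 (SE 2.16, FDR = 0.0186). *Krtap13* passed the filter of that fit only through the E16.5 libraries, in which it was higher, so the call describes when its reads were seen. The genotypes overlapped at E15.5 (log2 fold change 0.61, SE 1.79) and at E16.5 (-0.47, SE 1.47), with FDRs of 1.00 and 0.936. At both early ages the summed cornified envelope genes were highest, in each genotype, in the library with the most *Krtap13*. At E16.5 this was *Dsg1+/+* replicate 15, with 7969 CPM against 239 to 739 in the other 3. It was *Dsg1+/-* replicate 19 with 1866 CPM and *Dsg1-/-* replicate 21 with 6894 CPM. At E15.5 the margin was small in *Dsg1-/-*, 690 CPM in replicate 9 against 615 in replicate 12. A link between them was not tested.

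Heterozygous skin was tested against *Dsg1+/+* at each age. edgeR called 0 members at all 4 ages, as it did 0% of all genes, and DESeq2 called 0 members at each age. At an unadjusted p under 0.05 there were 0 members at each age, against 3.15%, 4.23%, 0.784% and 3.03% of all genes. The mean inner root sheath sum of *Dsg1+/-* at E18.5, 148 ± 33.9 CPM, differed from the 132 ± 42.2 CPM of *Dsg1+/+* by less than the spread between libraries.

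From E17.5 to E18.5, 3 of 18 members tested in *Dsg1+/+* were called higher, *Krt25*, *Krt27* and *Krt73*, where 0.029% of all genes were (5 genes). Their log2 fold changes were 2.78 (SE 0.42, FDR = 0.0632), 2.56 (SE 0.35, FDR = 0.0355) and 2.34 (SE 0.40, FDR = 0.0898). Without *Dsg1+/+* replicate 25 or 27 of E17.5, or 37 or 40 of E18.5, the count was 0, and without replicate 26 of E17.5 it was 5. In *Dsg1-/-*, 13 of 17 members tested were called higher, where 1.17% of all genes were. The count was 8 without replicate 46 or without replicate 48 of E18.5. In these fits without single libraries the calls over all genes are not given here. The changes of the counts therefore cannot be told from a shift of the whole test. Of the 13 members called in *Dsg1-/-*, *Krt26*, *Krt32*, *Krt33a*, *Krt72*, *Krt75* and *Krtap17-1* passed the filter only through E18.5. For them the call describes when reads appeared, and 7 other members were called. *Krt71* had a log2 fold change of 5.04 (SE 0.69, FDR = 0.00202) in *Dsg1-/-* and of 3.04 (SE 0.55, FDR = 0.103) in *Dsg1+/+*. *Krt35* had 3.82 (SE 0.52, FDR = 0.00202) and 2.97 (SE 0.66, FDR = 0.362).

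The difference between the genotype effects at the 2 ages was tested directly. Of 22 members tested, 0 were called with edgeR (0% of all genes) and 0 with DESeq2, while 10 had an unadjusted p under 0.05 with edgeR, where 5.97% of all genes did. Positive values were found for 21 of the 22, with a median of 1.66 against -0.02 over all genes. *Krt33a* and *Krt33b* passed the filter of this fit only through the *Dsg1-/-* libraries of E18.5, in which they were higher. The other members were not examined for this, and all share the same libraries. These counts and the median therefore cannot be read against the values over all genes. *Krt71* gave a difference of 1.996 (SE 0.89, FDR = 0.808), *Krt26* 2.97 (SE 1.06, FDR = 0.765) and *Krt32* 1.70 (SE 0.67, FDR = 0.772). The rise from E17.5 to E18.5 was therefore not shown to differ between *Dsg1-/-* and *Dsg1+/+*.

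Other genes of the follicle were compared at E18.5. Of 6 genes of the inner root sheath other than keratins, *Tchh*, which encodes the trichohyalin of its granules, was called higher, with 11.3, 6.49, 11.9 and 14.3 CPM in *Dsg1+/+* and 25.6, 26.4, 31.9 and 19.3 in *Dsg1-/-* (log2 fold change 1.23, SE 0.24, FDR = 0.0515). Of 6 genes of the shaft other than keratins, *S100a3*, a calcium-binding protein of the hair cuticle, was called higher (1.74, SE 0.43, FDR = 0.0804), with 2.62, 0.779, 1.85 and 4.13 CPM in *Dsg1+/+* and 10.9, 6.22, 5.63 and 8.44 in *Dsg1-/-*. The groups did not overlap for either gene. The lists as wholes were split, with 3 positive and 3 negative log2 fold changes for the inner root sheath (median -0.10) and 4 positive and 2 negative for the shaft (median 0.25). Over all 48 libraries the most abundant genes of these 2 lists were *Cux1* and *Crym*.

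Transcription factors and signals of the hair matrix were compared in the same way, and their difference from the keratins was not tested. Of 11 transcription factors, 0 were called, and their median log2 fold change was -0.06. Of 14 genes of placode and matrix signals, 12 had a negative value and 0 were called (median -0.40), although 4 had an FDR under 0.1 and missed only the fold limit. Their summed level was 557, 603, 545 and 427 CPM in *Dsg1+/+* and 332, 376, 354 and 513 in *Dsg1-/-*. All 8 dermal papilla genes had a negative value (median -0.29), and 0 were called. Over all libraries the most abundant genes of these 3 lists were *Lef1*, *Ptch1* and *Crabp1*.

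Markers of other cells moved in the same libraries. The 9 melanocyte genes summed to 280.0, 305, 309 and 359.9 CPM in *Dsg1+/+* and 352, 413, 462 and 509 in *Dsg1-/-*, with 8 of 9 positive (median 0.35), 0 called and *Dct* the most abundant. The myeloid genes summed to 272, 282, 228 and 386 CPM in *Dsg1+/+* and to 945, 638, 505 and 685 in *Dsg1-/-*. *Lyz2*, the most abundant, had a mean of 137 CPM within a mean sum of 292 in *Dsg1+/+*. In *Dsg1-/-* these means were 533 and 693 CPM. Of 7 myeloid genes tested, 5 were positive and 2 negative (median 0.67). *Lyz2* (1.96, SE 0.34, FDR = 0.0280) and *Cxcr2* (1.73) were called higher. The keratins of stressed epidermis and the outer root sheath had a median of 2.12, and *Krt16* (3.51, SE 0.69, FDR = 0.0523) and *Krt6a* (1.40) of 4 were called higher, with *Krt17* the most abundant. Of 20 cornified envelope genes 6 were called lower, *Kprp*, *Lce1a1*, *Lce1b*, *Lce1c*, *Lce1d* and *Lce1f*, between -3.06 and -2.25. The part of these cells in the keratin result was not tested.

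In the remaining lists at E18.5, 1 of 14 muscle genes (*Myh3*, -1.22) and 1 of 7 fibroblast genes (*Col1a1*, -1.44) were called lower. Of 9 epidermal keratins, 5 periderm keratins and 7 erythroid genes tested, 0 were called, with medians of -0.28, 0.07 and 0.28. At E17.5 the 9 epidermal keratins had a median of -1.77, the 5 periderm keratins 1.61 and the 8 erythroid genes 0.97, with 0 called in each. Over all libraries the most abundant genes of the cornified envelope, epidermal keratin, muscle, fibroblast and erythroid lists were *Lor*, *Krt10*, *Acta1*, *Col3a1* and *Hbb-bs*.

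Promoters of the members were compared because many of the keratins appeared together. RefSeq windows from 250 bases before to 50 bases after the gene start, on GRCm38.p6, were matched for 19 of the 27 members. The letters TATAAA on the strand of the gene were in 14 of the 19 (73.7%), against 8.32% of all 32851 windows of 300 bases. CTTTGAA on either strand, the core bound by LEF1 and TCF factors, was in 6 of the 19 (31.6%), against 5.14% of all windows. TATAAA was in 6 of 7 windows of inner root sheath keratins, 4 of 7 of shaft keratins and 4 of 4 of keratin-associated proteins. CTTTGAA was in 1 of 7, 4 of 7 and 1 of 4. The window of *Krt75* had neither. These matches are descriptions of the letters and not of bound sites, and neighbouring keratin genes share their origin.

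The 80 bases before the gene start follow for 7 members, in the direction of the gene, with TATAAA in capitals where present. *Krt25*, *Krt27*, *Krt71* and *Krt72* stand for the inner root sheath, *Krt32* for the shaft, and *Krtap17-1* and *Krtap3-2* for the keratin-associated proteins that moved in opposite directions. All 7 genes lie on the minus strand, at chr11:99322952-99323031 (*Krt25*), chr11:99351119-99351198 (*Krt27*), chr15:101743098-101743177 (*Krt71*), chr15:101786521-101786600 (*Krt72*), chr11:100088270-100088349 (*Krt32*), chr11:99993995-99994074 (*Krtap17-1*) and chr11:99556854-99556933 (*Krtap3-2*).
Krt25: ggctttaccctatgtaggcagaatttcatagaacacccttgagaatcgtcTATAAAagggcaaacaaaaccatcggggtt
Krt27: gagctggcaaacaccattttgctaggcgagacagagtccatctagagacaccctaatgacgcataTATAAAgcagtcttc
Krt71: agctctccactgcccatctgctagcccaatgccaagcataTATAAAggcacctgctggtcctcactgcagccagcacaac
Krt72: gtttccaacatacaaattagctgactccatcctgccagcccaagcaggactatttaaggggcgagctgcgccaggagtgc
Krt32: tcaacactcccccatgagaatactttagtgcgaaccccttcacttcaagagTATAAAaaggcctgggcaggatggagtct
Krtap17-1: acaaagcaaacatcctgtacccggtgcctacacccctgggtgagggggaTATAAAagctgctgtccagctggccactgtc
Krtap3-2: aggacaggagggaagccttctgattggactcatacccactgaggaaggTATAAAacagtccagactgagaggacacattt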

How the data were processed

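The authors deposited raw read counts per gene symbol for the 48 libraries, with no normalization. The submitters' processing notes name STAR, HTSeq and the build hg19 without saying which step used them, and hg19 is a human build. No coordinates were taken from the counts. The lowest mean of a listed gene was 1 count, and 0 columns were left unused. Libraries were grouped by the labels' age and genotype.

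Per age, edgeR 4.0.16 in R 4.3.3 fitted 12 libraries (TMM, quasi-likelihood test), and per genotype 16 libraries for the age steps. A fit of 24 libraries tested the difference between genotype effects. P-values were adjusted by Benjamini-Hochberg over all genes tested, with genes called at FDR ≤ 0.1 and an absolute log2 fold change ≥ 1. Standard errors are the log2 fold change divided by the square root of F. Transcript lengths came from GENCODE M21 (the longest transcript, 26 members and 74.1% of all genes). TMM factors over 48 libraries ranged from 0.814 to 1.13. Intervals and floors cover counting error only.

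Named genes were all members' keratins, keratin-associated proteins called, most changed or most abundant in their class, called genes of the lists and the most abundant gene of each list. The members and lists were chosen with earlier results of these data known. Classes of keratin-associated proteins follow their family number. On simulated counts the test recovered 91 of 100 genes changed by 2 on the log2 scale in the E17.5 comparison, with 10 other calls among 17253 genes. In the E18.5 comparison it recovered 98 of 100, with 13 other calls among 16910. The changed genes were drawn only from those above a minimum mean level, and genes varied independently between the simulated libraries. The recovery therefore does not apply to members below that level, to smaller changes or to libraries that differ in many genes together.

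Alternatives were DESeq2 1.42.0, other size factors, other filters and thresholds, 1 fit of all libraries, removal of the length trend, and leaving out each library. The protein composition of the members was not analysed here.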

Additional observations from a re-analysis of the deposited data

Results flagged for a closer look

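In a group of 4 libraries, 1 library stood far from the other 3 in 9 of 81 groups with a mean of at least 1 CPM, where chance gives about 1 in 20. The groups are not independent, since 1 library can stand out through several genes and through the sum that holds them. The count therefore cannot be read against that figure. At E18.5 *Dsg1+/-* replicate 43 stood far above the others for 3 inner root sheath keratins and for the sum of all 8. *Krt25* was at 39.7 CPM against 27.3 to 28.2, *Krt71* at 52.8 against 30.1 to 33.6, and *Krt73* at 34.7 against 23.3 to 24.7. The sum was at 199 CPM against 128 to 135. *Krt84* was at 6.35 CPM in *Dsg1+/+* replicate 16 of E16.5 and at 0 to 0.121 in the other 3.

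*Krtap13* had a single high library in 3 groups. It was at 34.3 CPM in *Dsg1-/-* replicate 9 of E15.5 against 0 to 0.862, at 245 in *Dsg1+/+* replicate 15 of E16.5 against 2.53, 5.54 and 22.004, and at 114 in *Dsg1+/-* replicate 19 of E16.5 against 3.81 to 6.93. The hair shaft keratin sum was 3.89 CPM in *Dsg1-/-* replicate 21 of E16.5 against 1.86 to 2.18 in the other 3 libraries.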

How the results depend on the processing

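The count of members called in *Dsg1-/-* against *Dsg1+/+* at E17.5 was 1. It was 0 at an FDR of 0.05, 2 with DESeq2, and 0 with the 4 libraries of the highest periderm sum left out, an alternative chosen after seeing the data. Leaving out single libraries gave 0 to 1.

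At E18.5 the count was 9. It was 1 at an FDR of 0.05, 5 with the length trend taken out and 0 with all 48 libraries in 1 fit, and single libraries left out gave 0 to 12. With library totals only it was 6, the median over all genes went from 0.02 to -0.13, and the calls over all genes went from 457 higher and 340.0 lower to 241 and 597. With all genes of at least 1 read kept it was 8, with *Krtap7-1* and *Krtap8-1* gained and *Krt33a*, *Krt33b* and *Krtap17-1* lost. With DESeq2 it was also 9, with *Krt31* gained and *Krtap3-2*, which had no adjusted p, lost.

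From E17.5 to E18.5 the count in *Dsg1+/+* was 3. It was 1 at an FDR of 0.05, 6 with DESeq2, 1 with library totals only and 6 with all libraries in 1 fit, and single libraries left out gave 0 to 5. In *Dsg1-/-* it was 13, with 8 to 13 when single libraries were left out. Where the calls over all genes are not given beside a count, its change cannot be told from a shift of the whole test.

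Signs changed for a few small log2 fold changes. At E17.5, without the 4 periderm-rich libraries, *Krt27* was at 0.0220, *Krt28* at 0.15 and *Krt85* at 0.59. Those libraries also had the lowest inner root sheath sums, so the upward shift of *Krt27* and *Krt28* was fixed by the choice. With single libraries left out, *Krt35* ranged from -0.33 to 0.41 (also -0.08 and -0.04) and *Krt85* from -0.76 to 0.37 (also 0.19 and 0.07). At E18.5 *Krt85* ranged from -0.0177 to 0.76 and *Krt86* from -0.26 to 0.72.

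The counts of 0 in *Dsg1+/-* at every age and in *Dsg1-/-* at E15.5 and E16.5 stayed at 0 in every alternative.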

Other observations

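*Krtap13* and *Krt13*, a keratin of the periderm list, were set side by side after their values had been seen. In the *Dsg1-/-* libraries of E17.5, *Krt13* was at 6.35, 5.02, 207 and 260.3 CPM, while *Krtap13* had 0, 0, 4 and 1 reads.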
